A study of Mus musculus with 10 samples.

Results

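The potassium channels opened by intracellular calcium or closed by ATP were followed through 9 genes: Kcnma1 and Kcnmb4 (BK channels), Kcnn1, Kcnn2 and Kcnn3 (SK channels), and Kcnj8, Kcnj11, Abcc8 and Abcc9 (ATP-sensitive, or KATP, channels). They were picked by name, as channels linked to the end of bursts and to metabolic sensing, from 55367 listed genes, and all 9 were present in the files. The preBötzinger complex (preBötC) is the brainstem site that generates the inspiratory rhythm. Each of the 10 transcriptomes came from the cytoplasm of 1 inspiratory preBötC neuron, drawn into a patch pipette in a slice from a neonatal mouse.

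By their electrophysiology, samples 4 to 7 were of Type-1, sample 1 was of Type-2, and the remaining 5 (samples 2, 3, 8, 9 and 10) could not be assigned and are labelled Unknown. Type-1 neurons have a long ramp of synaptic drive, delayed excitation from the A-type potassium current and no sag, and are the putative rhythm generators, whereas Type-2 neurons have a short ramp and a sag and are the putative pattern generators. Samples 1, 5, 6 and 7 were Dbx1-derived neurons of Dbx1;Ai148 mice, in which Cre under the Dbx1 promoter turns on the calcium indicator GCaMP6f in every cell whose precursors expressed Dbx1. Their background was C57Bl/6J or a mixture of that strain with CD1. The other 6, labelled WT, came from CD-1 mice with no reporter. Samples 1, 3, 5 and 8 were taken at P0, sample 10 at P1, samples 2 and 9 at P2, and samples 4, 6 and 7 at P3. Neither type nor line was replicated over named animals, since the labels name none, so every comparison below is a description of single neurons and no p-value is given. Type and line nearly coincide: all 5 Unknown neurons were WT, 3 of the 4 Type-1 neurons were Dbx1-derived, and the lone Type-2 neuron was Dbx1-derived.

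BK channels open when depolarization and a rise in calcium coincide, and they shape spikes and the fast afterhyperpolarization. SK channels have no voltage sensor: they carry calmodulin as their calcium sensor and give the slower afterhyperpolarization that restrains firing. KATP channels close as ATP rises and open when it falls, and each is an octamer of a pore-forming Kir6 protein and a sulfonylurea receptor. In rhythmic neurons of the preBötC these outward currents have been studied as candidates for ending the inspiratory burst and for the response to hypoxia.

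Levels are given in FPKM, the fragments counted on a gene per kilobase of its length and per 1e+06 fragments counted on all genes, so that they can be set side by side between genes. Totals on genes ran from 21392146 to 36629393 fragments per neuron. A count of 0 allows up to 3 fragments. The reads carried no molecular identifiers, so this floor and the exact 95% Poisson intervals cover counting error only. A gene was called present in a neuron at 1 FPKM or more.

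The library of sample 4 differed from a neuronal profile. Its 8 genes listed for neurons (such as Snap25 and Tubb3) summed to 58.4 FPKM, against 761 FPKM or more in the other 9 libraries, while its 8 microglial genes summed to 15398 FPKM, against 2039 FPKM in sample 2 and 492 FPKM or less elsewhere. All 8 microglial genes were at 1 FPKM or more in both samples 2 and 4. Genes reaching 1 FPKM numbered 5065, 5623, 5055 and 6795 in samples 1 to 4, 6632 in sample 9 and between 8720 and 9307 in the other 5. For samples 2, 3, 4 and 8, the levels of 10 astrocyte genes added up to 2773, 5450.5, 5005 and 1766 FPKM. Of these genes 7, 7, 3 and 9 were present, and the sum was no more than 464 FPKM elsewhere. Most of each of the 4 sums was Apoe, at 2578, 5045, 4991 and 1562 FPKM. In sample 4 the only other astrocyte genes present were Aqp4 and Slc1a2, at 6.55 and 6.74 FPKM. The 8 genes of the oligodendrocyte lineage added up to 205, 337 and 103 FPKM in samples 2, 3 and 8, and to no more than 55.1 FPKM elsewhere. The part of these differences in the results below was not tested.

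The start sites of 3 of the 9 genes are shown because their detection set neurons apart or failed in all of them: Kcnn3 was found in Dbx1-derived neurons, Kcnn1 in only a pair of Unknown neurons, and Kcnj8 in none. The sequences are the 250 bases before each RefSeq start on GRCm38, read 5′ to 3′ on the gene's strand, with matches to the searched motifs in capitals.
Kcnn3, chr3:89519914-89520163, plus strand: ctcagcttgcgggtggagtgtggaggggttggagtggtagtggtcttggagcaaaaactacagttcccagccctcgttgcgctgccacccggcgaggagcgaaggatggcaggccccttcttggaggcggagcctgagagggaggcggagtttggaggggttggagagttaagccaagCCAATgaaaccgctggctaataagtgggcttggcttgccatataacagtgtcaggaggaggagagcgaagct
Kcnn1, start farthest upstream, chr8:70863259-70863508, minus strand: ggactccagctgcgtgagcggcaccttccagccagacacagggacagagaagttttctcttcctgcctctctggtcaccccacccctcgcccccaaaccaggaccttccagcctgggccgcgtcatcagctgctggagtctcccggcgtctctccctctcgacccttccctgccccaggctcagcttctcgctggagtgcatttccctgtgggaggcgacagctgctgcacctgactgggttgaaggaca
Kcnn1, second start, chr8:70857009-70857258, minus strand: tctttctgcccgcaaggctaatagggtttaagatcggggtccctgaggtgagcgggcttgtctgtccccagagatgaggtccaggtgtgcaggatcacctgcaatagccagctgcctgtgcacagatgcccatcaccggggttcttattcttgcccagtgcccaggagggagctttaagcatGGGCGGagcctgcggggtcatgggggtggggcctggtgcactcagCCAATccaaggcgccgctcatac
Kcnj8, chr6:142571615-142571864, minus strand: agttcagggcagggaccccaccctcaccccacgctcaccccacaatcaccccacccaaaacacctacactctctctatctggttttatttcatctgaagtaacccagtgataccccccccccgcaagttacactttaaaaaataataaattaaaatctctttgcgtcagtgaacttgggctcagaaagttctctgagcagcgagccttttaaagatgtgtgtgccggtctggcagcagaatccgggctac

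The motifs searched on both strands were TATAAA, the core promoter box of that kind, CCAAT, a box bound by NF-Y, GGGCGG, the box bound by Sp factors, and TGACGTCA, the response element of cyclic AMP, and none contains another. Of 32817 such windows in the table, 12.4% held TATAAA, 33.8% CCAAT, 32.7% GGGCGG and 1.55% TGACGTCA. The Kcnn3 window held 1 CCAAT, the second Kcnn1 window 1 CCAAT and 1 GGGCGG, and the upstream Kcnn1 window and the Kcnj8 window held none of the 4. GC content was 58.8% for Kcnn3, 63.6% and 60.4% for the Kcnn1 windows and 49.2% for Kcnj8, with a median of 52.4% over all windows. These matches describe letters in a window and carry no statement on binding. All 250 bases of the upstream Kcnn1 window lie in an exon of A230052G05Rik on the opposite strand, and 5 bases of the second lie in a Kcnn1 exon. The windows of Kcnma1, Kcnmb4 and Abcc9, which hold 250, 250 and 41 bases of exons that include their own, are not shown.

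Of the 9 genes, 7 reached 1 FPKM in at least 1 neuron, as did 29.9% of all listed genes. Those 7 were present in 24 of 70 gene-neuron pairs, or 34.3%, beside 45% of pairs over all 16546 genes that reached that level somewhere. Only Kcnma1 and Kcnn2 were present in at least 5 neurons (6 each), 2 of the 7, where the share over the same genes was 45.5%, or 13.6% of all listed genes. Presence and absence were well parted. The 24 values called present lay at 1.44 FPKM or more and rested on at least 127 fragments, 1 value lay just under the level at 0.857 FPKM (Kcnn3 in sample 6, 282 fragments), and the next lower was 0.207 FPKM.

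**Figure D1:**
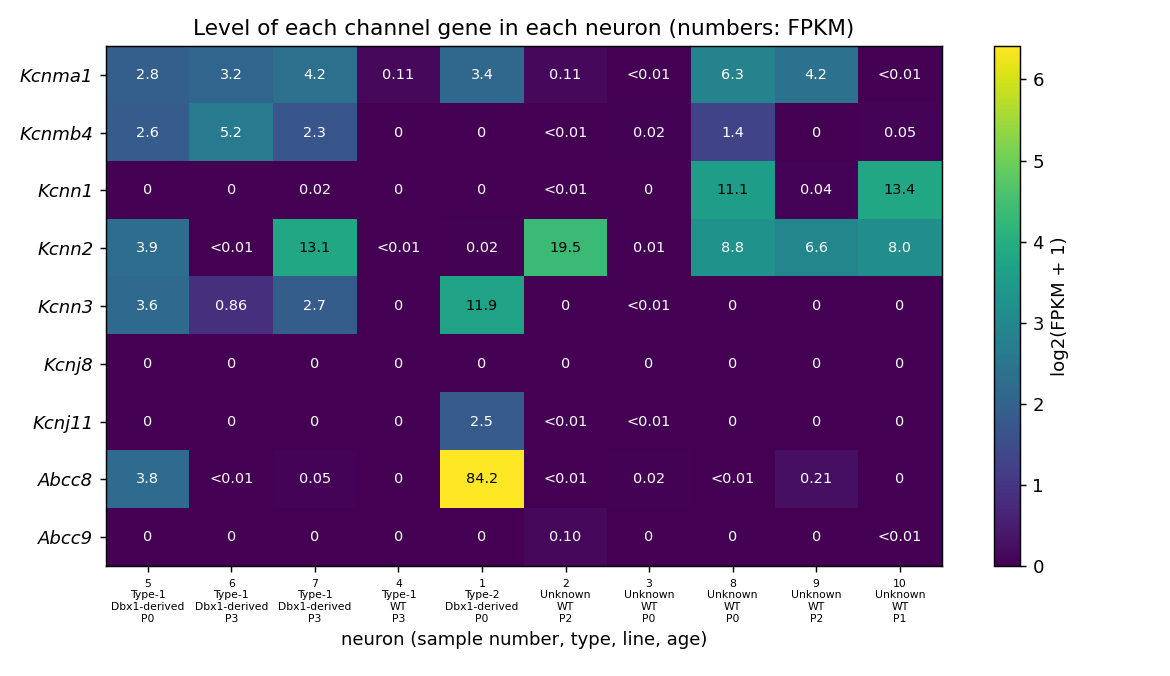
Level of the 9 channel genes (rows) in the 10 neurons (columns, Type-1 first, then Type-2, then Unknown), with FPKM written in each cell and log2(FPKM + 1) as colour. Abcc8 in sample 1 is the brightest cell at 84.2 FPKM, and the columns of samples 3 and 4 hold no gene at 1 FPKM.

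Kcnma1 encodes the pore-forming alpha subunit of the BK channel (chromosome 14, 23289431 to 24014491 in GRCm38, minus strand). It was at 3.38, 0.106, 0.00378, 0.108, 2.82, 3.24, 4.2, 6.29, 4.21 and 0.00579 FPKM in samples 1 to 10, with a mean of 2.44 ± 2.25 FPKM (SD, n = 10 neurons). All 4 Dbx1-derived neurons had it, within a narrow range of 2.82 to 4.2 FPKM (3.41 ± 0.577 FPKM, SD, n = 4 neurons). Among the 6 WT neurons it was high in samples 8 and 9 and low in the other 4, so the lines overlapped, with a WT median of 0.107 FPKM. Among the 6 neurons that had it, samples 9 and 7 did not differ in FPKM beyond counting error, nor did samples 1 and 6. The other neighbours in order of level had intervals that did not meet. This order depends on the scaling. In TPM, which is FPKM scaled to the same sum in each neuron, samples 9 and 7 were at 8.39 and 12.1, and sample 5 was at 8.3. Of the 4 low neurons, samples 4 and 2 had overlapping intervals, as did samples 10 and 3. The highest level, in sample 8, rested on 2838 fragments (95% Poisson interval 2735 to 2944).

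Kcnma1 was a gene of low abundance wherever it was found. Of the genes at 1 FPKM or more in the same neuron, between 13.7% and 29.4% lay below it. Its length in the files, 16976 bases, equals the merged exons of all its annotated isoforms in GENCODE M21, and a neuron that uses shorter isoforms has a lower FPKM for the same number of transcripts. An antisense-strand lncRNA, 4930519K11Rik, shares 1016 of these bases and did not exceed 0.598 FPKM in any neuron. The counts of 65 and 54 fragments in samples 2 and 4 compare with 3.24 and 1.53 fragments expected from reads of other libraries, estimated on genes nearly private to 1 neuron.

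Kcnmb4 encodes the neuronal beta4 accessory subunit, which slows BK gating and makes the channel resistant to some toxins (chromosome 10, 116417861 to 116473878, minus strand). It was at 2.64, 5.16, 2.3 and 1.44 FPKM in samples 5, 6, 7 and 8, from 321, 540, 196 and 127 fragments. In the other 6 neurons it had 0, 1, 2, 0, 0 and 5 fragments (samples 1, 2, 3, 4, 9 and 10), at most 0.0493 FPKM. All of the Dbx1-derived Type-1 neurons thus had it, the WT Type-1 neuron (sample 4) and the Type-2 neuron did not, and 1 of the 5 Unknown neurons did. The neurons with Kcnmb4 were the same 4 in which the vesicular glutamate transporter Slc17a6 was at 101 FPKM or more (101, 158, 156 and 230 FPKM in samples 5, 6, 7 and 8), whereas Slc17a6 was at 1.85 FPKM or less in the rest. This match was noticed after the values were seen, and the level of 101 FPKM was taken from them. At 1 FPKM or more, Slc17a6 was present in 5 neurons, sample 2 included. Samples 5 to 8 were also among the libraries with the most genes present, between 8720 and 9307. The share of all genes with the same pattern was not counted.

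All 4 neurons with Kcnmb4 also had Kcnma1, so both BK genes were present together in samples 5 to 8. Samples 1 and 9 had Kcnma1 at 3.38 and 4.21 FPKM with 0 fragments of Kcnmb4, which allows up to 0.0422 and 0.0409 FPKM. The ratio of Kcnma1 to Kcnmb4 FPKM was 1.07, 0.628, 1.83 and 4.38 in samples 5, 6, 7 and 8. In sample 6 alone the accessory subunit was the higher. The antisense gene Kcnmb4os2 shares 693 exon bases (20.8%) with Kcnmb4. It was at 2.52, 2.16 and 20.2 FPKM in samples 5, 6 and 7 and at 0.0186 FPKM in sample 8. The kit does not mark strand, so reads in the shared stretch cannot be assigned, and the Kcnmb4 value of sample 7 carries the most of this uncertainty.

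Of the further BK accessory genes, none was common. Kcnmb1, Kcnmb2 and Kcnmb3, the other beta subunits, and Lrrc38 and Lrrc52, of the gamma family, had 0 fragments in all 10 neurons. Lrrc26, the gamma subunit that lets BK channels open at resting voltages, was at 1.9 and 0.56 FPKM in samples 2 and 6, and Lrrc55 was at 1.85 FPKM in sample 3. Kcnma1 was at 0.106, 3.24 and 0.00378 FPKM in samples 2, 6 and 3.

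Kcnn1 encodes SK1 (chromosome 8, 70842049 to 70863258, minus strand). It was at 11.1 FPKM in sample 8 and 13.4 FPKM in sample 10, from 1348 and 1870 fragments. The other 8 neurons held between 0 and 4 fragments each, at most 0.0395 FPKM, and 5 of them held 0. Outside 2 Unknown WT neurons, Kcnn1 was therefore all but absent from the libraries of both lines. Of these 2 neurons, sample 8 had Slc17a6 at 230 FPKM. Gad1, which makes GABA, was present in both, with 8.28 FPKM from 1681 fragments in sample 8 and 92 FPKM in sample 10. Slc17a6 was at 0.0303 FPKM in sample 10. Within its neurons Kcnn1 was an intermediate gene, with 46.6% and 55.5% of the genes at 1 FPKM or more lying below it.

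Kcnn2 encodes SK2 and lies on chromosome 18. It was at 0.0188, 19.5, 0.0129, 0.0091, 3.91, 0.00425, 13.1, 8.83, 6.65 and 7.98 FPKM in samples 1 to 10, with a mean of 6 ± 6.61 FPKM (SD, n = 10 neurons). It was present in 4 of 5 Unknown neurons, all but sample 3, and in 2 of 4 Type-1 neurons, samples 5 and 7. Every neuron thus had either at least 1069 fragments of Kcnn2 or at most 3. In FPKM, all neighbours in the order of the 6 levels differed beyond counting error. The order of the top pair was not kept in TPM, where samples 2 and 7 were at 37.2 and 37.7. The 1 to 3 fragments in samples 1, 3, 4 and 6 compare with 4.85, 1.01, 2.96 and 1.04 expected from other libraries.

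Kcnn3 encodes SK3 (chromosome 3, 89520164 to 89675132, plus strand), whose start is printed above. It was at 11.9, 3.56, 0.857 and 2.73 FPKM in samples 1, 5, 6 and 7, from 2666, 1364, 282 and 732 fragments. In the 6 WT neurons it had 0 fragments in samples 2, 4, 8, 9 and 10 and 2 fragments in sample 3. The 4 Dbx1-derived neurons lay above all 6 WT neurons. This was 1 of 9 members, and 1.04% of the 16546 genes were likewise higher in every Dbx1-derived neuron, with 0.792% lower in every one, and no member was lower throughout. The result rests on the line labels. The study's main text gives the same make-up as the labels, with all Unknown neurons from CD-1 mice and the Type-2 neuron Dbx1-derived. Some of its figure legends instead place samples 1 to 6 in CD-1 and samples 7 to 10 in Dbx1;Ai148 mice. That placing conflicts with the main text, since it makes the Type-2 neuron CD-1 and Unknown samples 8 to 10 Dbx1;Ai148. Under the legends' placing, Kcnn3 would not separate the lines, and Kcnma1 would range from 0.00579 to 6.29 FPKM in the Dbx1;Ai148 neurons. The line, the Cre and indicator transgenes and the strain background cannot be told apart here. The 6 WT neurons include the 1 WT Type-1 neuron, sample 4, in which genes of neurons were low.

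The combination of SK genes differed between neurons. An SK gene was present in 7 of 10 neurons: 3 neurons had 1, 4 had 2, and no neuron had all 3. Samples 2 and 9 had Kcnn2 alone, sample 1 had Kcnn3 alone, samples 5 and 7 had Kcnn2 with Kcnn3, and samples 8 and 10 had Kcnn1 with Kcnn2. Kcnn1 and Kcnn3 were never both present. With only 2 and 3 neurons this separation rests on few cells. Summed over the SK genes, the level was 11.9, 19.5, 7.47, 15.9, 19.9, 6.69 and 21.3 FPKM in samples 1, 2, 5, 7, 8, 9 and 10, and 0.861, 0.019 and 0.0091 FPKM in samples 6, 3 and 4.

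**Figure D2:**
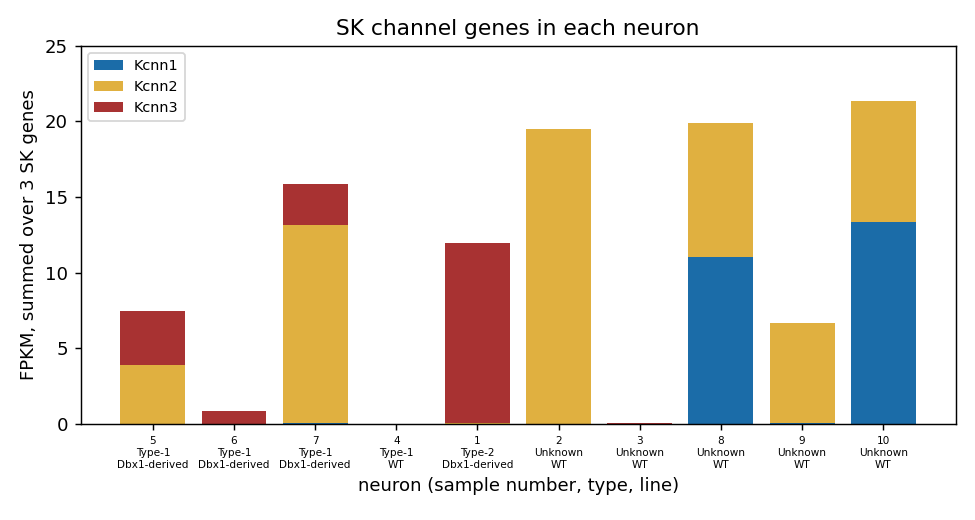
FPKM of the 3 SK genes stacked for each neuron, Type-1 first, then Type-2, then Unknown. Kcnn3 has a visible bar in the 4 Dbx1-derived neurons, Kcnn1 in samples 8 and 10, and the tallest stack is sample 10 at 21.3 FPKM.

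Proteins known to work with SK channels, and the relative Kcnn4, were counted in the same way. Of 7 genes listed, 6 were present in 5 neurons or more, as were 45.5% of the genes present somewhere, and the other was in 1. Calm2 and Calm3, which encode calmodulin, the calcium sensor of SK channels, were present in all 10 neurons at means of 1600 ± 703 and 119 ± 53.6 FPKM (SD, n = 10 neurons). Casein kinase 2, which lowers the calcium sensitivity of SK2 through calmodulin, had its regulatory subunit Csnk2b in 9 neurons (36.3 ± 19.8 FPKM, SD, n = 10 neurons) and each catalytic subunit, Csnk2a1 and Csnk2a2, in 6. Kcnn4, the intermediate-conductance relative that is also known from microglia and blood cells, was at 2.12 FPKM in sample 8 and at 0 in the other 9. In sample 8, where 6 of the 8 microglial genes were at 1 FPKM or more, Kcnn4 rested on 288 fragments. All 8 microglial genes were at that level in samples 2 and 4. The source of the Kcnn4 fragments was not tested.

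Abcc8 encodes the sulfonylurea receptor SUR1 (chromosome 7, 46104523 to 46180033, minus strand). In the Type-2 neuron, sample 1, it was at 84.2 FPKM from 14570 fragments (95% Poisson interval 14334 to 14809), and 80.3% of the genes at 1 FPKM or more in that neuron lay below it. The Type-1 sample 5 had it at 3.76 FPKM from 1114 fragments. The other 8 neurons had between 0 and 37 fragments, with 0.207 FPKM in sample 9 the highest. Sample 1 also had the glycine transporter gene Slc6a5 at 146 FPKM, the highest of the 10 neurons, and the GABA-synthesis genes Gad1 and Gad2 at 71.8 and 43.5 FPKM. Of the 8 neuronal genes, 6 were present in sample 1. Uchl1, Stmn2, Snap25 and Elavl4 were at 407, 136, 129.8 and 61 FPKM, and Tubb3 and Syt1 at 23 and 4.15 FPKM. Nefl and Rbfox3 were at 0.263 and 0.0241 FPKM. Sample 1 also held 3 of the 10 astrocyte genes at 1 FPKM or more: Apoe, Agt and Slc1a3, at 274, 149 and 41.1 FPKM. Of the 8 microglial genes it held 2, C1qa and Aif1, at 90.3 and 22 FPKM. Of 8 endothelial genes it held 1, Tek, at 6.82 FPKM. The part of these genes' source cells in the level of Abcc8 was not tested. The level of Abcc8 in sample 1 was 22.4 times that in sample 5, and Abcc8 was the most abundant of the 9 genes in any neuron. Of its summed FPKM, 95.4% came from sample 1.

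Kcnj11 encodes Kir6.2, the pore that pairs with SUR1 in neurons and pancreatic beta cells (chromosome 7, 46093953 to 46100764, minus strand), and its gene lies 3758 bases from Abcc8 on the same strand. It was at 2.49 FPKM in sample 1, from 196 fragments (95% Poisson interval 169.5 to 225), and had 1 fragment in each of samples 2 and 3 and 0 in the other 7. Sample 1 was therefore the 1 neuron with both a Kir6 gene and a sulfonylurea receptor gene present. Sample 5, with Abcc8 at 3.76 FPKM, had 0 fragments of Kcnj11 and of Kcnj8, which allows up to 0.0223 and 0.0321 FPKM. The annotated exons of Kcnj11 and Abcc8 are shared with no other gene.

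Neither gene of the vascular pair reached 1 FPKM in any neuron. Kcnj8, which encodes Kir6.1 (chromosome 6, 142564837 to 142571614, minus strand; its start is printed above), had 0 fragments in all 10 neurons, which allows up to 0.0321 FPKM in the deepest library and 0.055 FPKM in the shallowest. Abcc9, for SUR2 (chromosome 6, 142587862 to 142702315, minus strand), had 30 fragments in sample 2, or 0.0988 FPKM, 1 fragment in sample 10 and 0 in the other 8. Both genes are known as markers of pericytes and smooth muscle. In sample 2 none of 8 further mural genes reached 1 FPKM, and their levels summed to 0.15 FPKM. Pdgfrb, Notch3 and Cspg4 had 12, 23 and 5 fragments there, or 0.0604, 0.0784 and 0.0116 FPKM. Rgs5, Vtn and Myh11 were at 0 in all 10 neurons. The source of the Abcc9 fragments was not tested.

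**Figure D3:**
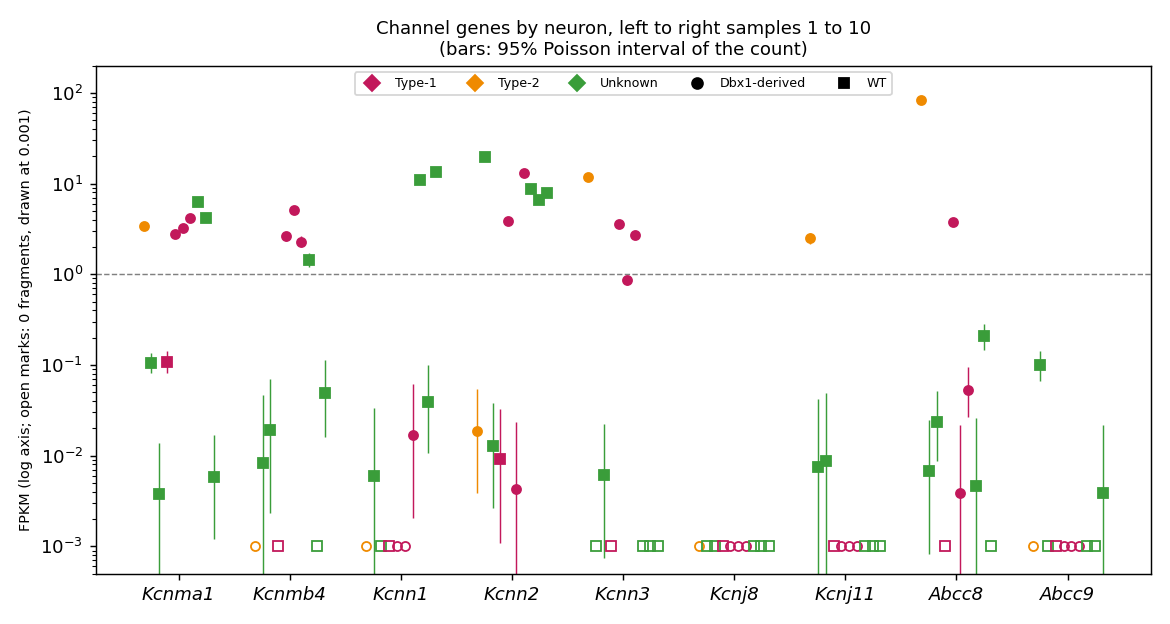
FPKM on a log axis for each gene, with the 10 neurons from left to right as samples 1 to 10, coloured by type and shaped by line; bars are 95% Poisson intervals, open marks are counts of 0 drawn at 0.001, and the dashed line is 1 FPKM. Nearly all values lie either above 1.4 FPKM or below 0.21 FPKM, and Kcnn3 in sample 6, at 0.857 FPKM, is the value between.

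Genes of energy sensing were counted beside the KATP genes. Of 13 genes of AMP-activated protein kinase, adenylate kinases and creatine kinases, 12 were present in 5 neurons or more, a number reached by 45.5% of the genes present somewhere, and none of the 4 KATP genes was. Brain creatine kinase, Ckb, was highest, at 589 ± 435 FPKM (SD, n = 10 neurons), and was present in all 10. The adenylate kinase gene Ak4 was the exception, at 16.1 FPKM in sample 7, 11.5 FPKM in sample 2 and at most 0.0219 FPKM elsewhere. In sample 1, where both KATP genes were found, the gamma subunit Prkag2 was at 66.2 FPKM, its highest level, while the catalytic subunits Prkaa1 and Prkaa2 were at 0.0201 and 0.0235 FPKM.

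Genes of calcium entry and release, the sources of calcium for BK and SK channels, were counted likewise. Of 11, of which 10 were present somewhere, 3 were present in 5 neurons or more, beside 45.5% of the genes present somewhere: Cacna1a (P/Q-type channel) in 7 neurons with a mean of 5.97 ± 7.99 FPKM (SD, n = 10 neurons), Cacna1b (N-type) in 6 and the ryanodine receptor Ryr2 in 6. In sample 4, Cacna1a was at 1.86 FPKM although none of the 9 potassium channel genes was present. Itpr3 had 0 fragments in all 10 neurons. The sodium-activated relatives of the BK channel, Kcnt1 and Kcnt2, were at 15.6 and 23.5 FPKM in sample 1, and Kcnt1 was highest in sample 5 at 25.2 FPKM.

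Neuron by neuron, the 9 genes gave few shared profiles. Sample 1 had Kcnma1, Kcnn3, Kcnj11 and Abcc8. Of the Type-1 neurons, sample 5 had 5 genes (Kcnma1, Kcnmb4, Kcnn2, Kcnn3 and Abcc8), sample 7 had the same without Abcc8, and sample 6 had only the BK pair, with Kcnn3 just under 1 FPKM. Sample 8 had Kcnma1, Kcnmb4, Kcnn1 and Kcnn2, sample 9 had Kcnma1 and Kcnn2, sample 10 had Kcnn1 and Kcnn2, and sample 2 had Kcnn2 alone. Samples 3 and 4 had none. In sample 3, which had all 8 neuronal genes at 1 FPKM or more beside the highest astrocyte sum of the 10 libraries, the 9 channel genes together held 16 fragments, and in sample 4 they held 56, of which 54 were of Kcnma1. Between 30.6% and 56.2% of the genes present somewhere were present in any 1 neuron, with 30.6% in sample 3 and 41.1% in sample 4.

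The concentration of levels in single neurons was usual for these data. A single neuron gave over 50% of the total FPKM for 4 of the 7 genes that were present somewhere (Kcnn1, Kcnn3, Kcnj11 and Abcc8), as it did for 48.5% of the 16546 genes. The highest neuron was sample 1 in 3 of the 7 (Kcnn3, Kcnj11 and Abcc8), and in 12.9% of the same genes.

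**Figure D4:**
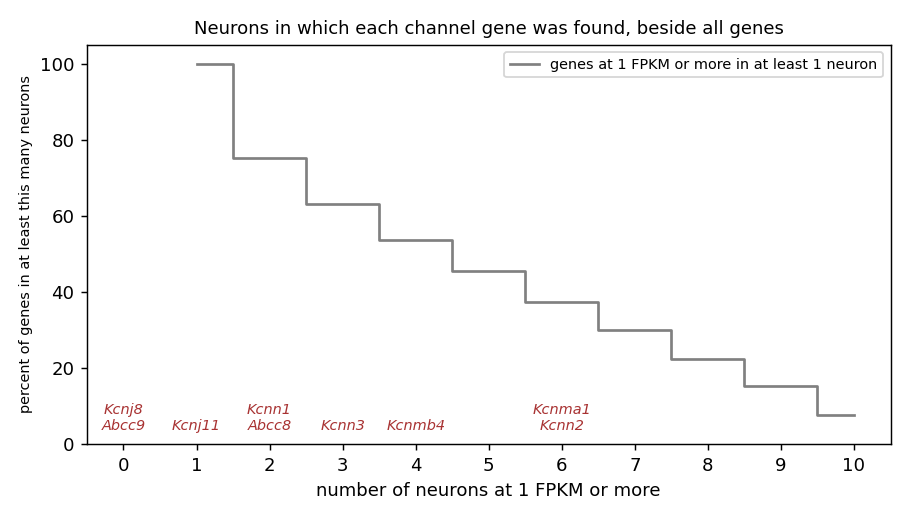
Share of the 16546 genes present in at least 1 neuron that were present in at least the number of neurons on the x axis (grey line, percent), with each channel gene written at its own number of neurons. Kcnma1 and Kcnn2 stand at 6 neurons, where the line is at 37.4%, and Kcnj8 and Abcc9 stand at 0.

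Type-1 and Unknown neurons were compared by the mean of log2(FPKM + 1), and a difference of 1 or more was counted. Kcnmb4 was higher in Type-1 neurons by 1.27 (1.55 ± 1.11 against 0.279 ± 0.564, SD, n = 4 and 5 neurons) and Kcnn3 by 1.24 (1.25 ± 0.999 against 0.00177 ± 0.00395). These are 2 of the 7 members present somewhere, beside 18.1% of the 16546 genes present somewhere. Kcnn1 lay lower in Type-1 neurons, with a difference of -1.49, and Kcnn2 with one of -1.22, again 2 of the 7, beside 9.78% of the same 16546 genes. None of the members parted the types without overlap, as 0.58% of those genes did upward and 0.393% downward. Which genes passed a difference of 1 depended on single neurons and, as given below, on the scale. Without sample 4, the library low in genes of neurons, the difference was -0.72 for Kcnn2 and 1.05 for Kcnma1. Without sample 6 it was -0.71 for Kcnn2 and 0.92 for Kcnmb4, and without sample 7 it was -1.98 for Kcnn2. Leaving out sample 2 gave -0.82 for Kcnn2, and leaving out sample 3 gave -1.91. For Kcnn1 it was -0.97 without sample 8 and -0.91 without sample 10, the neurons that had the gene. For Kcnn3 it was 0.93 without sample 5, and for Kcnma1 1.00 without sample 8. The difference of Kcnma1 was 0.55 with a standard error of 0.81, that is, smaller than the spread between neurons. For Kcnn2 the standard error was 1.18, close to the difference itself. The median difference over the 7 members present somewhere was 0.52, and over all such genes 0.17.

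Age did not order the levels of Kcnma1 and Kcnn2 in an evident way, and each age held few neurons. Kcnma1 was present in 3 of 4 neurons at P0, 0 of 1 at P1, 1 of 2 at P2 and 2 of 3 at P3. Kcnn2 was present in 2 of 4, 1 of 1, 2 of 2 and 1 of 3 at the same ages. Abcc8 and Kcnj11 were present only at P0, in 2 and 1 of the 4 neurons. Kcnn1 was present only at P0 and P1, in 1 neuron each, and Kcnmb4 and Kcnn3 only at P0 and P3. Every age at which several neurons were taken mixed types, lines or both, except P2, where both neurons were Unknown and WT.

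For each gene present in at least 3 neurons, the 3 genes with the most similar levels were taken by Pearson's r of log2(FPKM + 1) over the 10 neurons, out of 10416 genes present in at least 3. The points share library, depth and the 2 libraries without channel genes, and the highest of so many values is large by selection. For Kcnma1 they were 4833420G17Rik (r = 0.974), Sgsm2 (0.933) and Chst1 (0.931). For Kcnmb4 they were the phosphate transporter gene Slc20a2 (r = 0.986), the synaptic vesicle gene Sv2b (0.98) and Abcg4 (0.979), each present in the same 4 neurons. For Kcnn2 they were Timm10 (r = 0.956), 2210016F16Rik (0.953) and Slc49a4 (0.951). For Kcnn3 they were Ankrd49 (r = 0.977), Aqr (0.969) and D430041D05Rik (0.967). Ankrd49 was at 88.5, 11 and 9.57 FPKM in samples 1, 5 and 7 but at 0.0121 FPKM in sample 6, where Kcnn3 was at 0.857 FPKM.

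Low counts were set beside the number expected from reads of other libraries. Of the 90 values, 40 were at 0, 26 had fragments but lay under 1 FPKM, and 24 were present. Among the 26, 9 held more than 3 fragments. For Abcc8, whose 14570 fragments in sample 1 were the largest count, sample 7 held 11 fragments against 19.8 expected and sample 3 held 6 against 5.84, while sample 9 held 37 against 1.19. For the 30 Abcc9 fragments of sample 2, fewer than 1 was expected. Among the values called present, the expected number was at most 8.53 fragments, for Kcnn2 in sample 8, which held 1752.

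**Figure D5:**
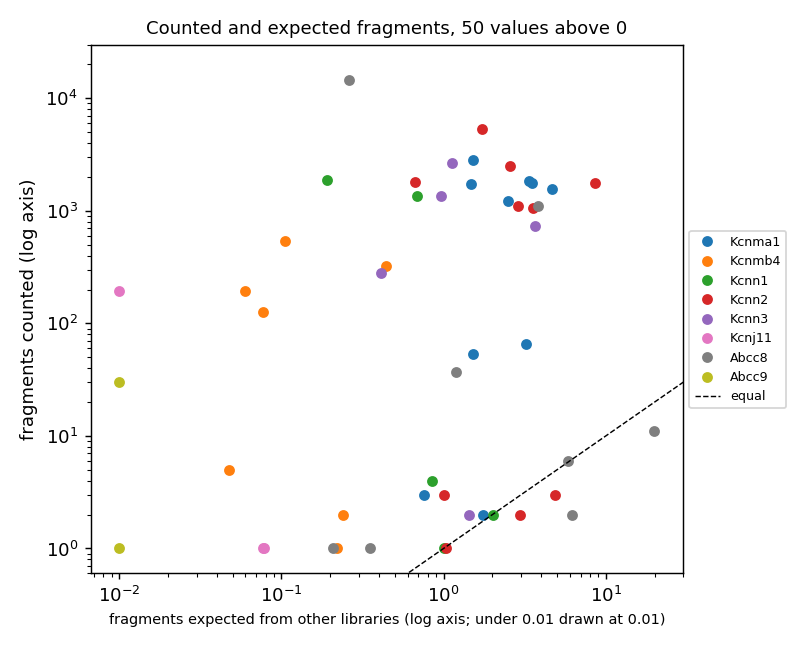
Fragments counted against fragments expected from other libraries, both on log axes, for the 50 values above 0, coloured by gene; the dashed line marks equality. The 24 present values lie far above the line, and Abcc8 in sample 7, with 11 fragments against 19.8 expected, lies below it; expected numbers under 0.01 are drawn at 0.01.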

How the data were processed

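The data are RNA libraries of 10 single neurons, 1 per neuron, made from patch pipette contents with SMART-Seq v4 and Nextera kits. Per the study's methods and the submitters' processing notes, reads were checked with FastQC 0.11.8, trimmed with bbduk, aligned with STAR 2.7.7a to GRCm38 with the Ensembl annotation and counted with featureCounts. Options for fragments that match several places were not given in the sources used here. The deposited files give for each gene its length, raw fragment counts and FPKM values made from both. The deposited FPKM equalled count per kilobase and per 1e+06 fragments on genes, and the lengths of the 9 genes equalled their merged GENCODE M21 exons.

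Neurons were grouped by the type label, and by the line label (WT or Dbx1-derived), which was used where the study's figure legends differ. No test was made between groups. The 9 genes, the gene lists and the rules were chosen with earlier results of these data known. Named genes were the 9 members, list genes present in at least 5 neurons or leading their list, and the 3 most similar genes of each member present in at least 3 neurons; the other list genes named, and Kcnmb4os2 and 4930519K11Rik, were chosen after their values were seen. Some list genes are not reported here by name.

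Expected fragments from other libraries used genes that reached 1000 counts in 1 library without passing 2% of that count elsewhere, and left out the 5% of highest shares. The rates had a median of 0.00707% and a maximum of 0.157% over 90 ordered pairs. The calculations were tested on simulated data. Alternatives were TPM, other detection levels (0.1 and 5 FPKM, 10 counts), a pseudocount of 0.1, medians, subtraction of expected fragments and leaving out neurons. Calculations used SciPy 1.17.1, pandas 2.3.3 and NumPy 2.4.6 under Python 3.11.15, and plots Matplotlib 3.10.9. Promoter sequences are from RefSeq (GRCm38.p6), which held windows for 6 of the 8 members sought.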

Additional observations from a re-analysis of the deposited data

Results flagged for a closer look

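Within the Type-1 and the Unknown neurons, 14 sets of log2(FPKM + 1) values were examined by Dixon's criterion, and 6 held 1 neuron far above the others. For normally distributed values chance gives about 1 in 20. These sets hold many values at or near 0, and a set with all values but 1 at 0 is flagged by construction. The 6 sets therefore cannot be compared with that share, and the values of 1 neuron are related. Abcc8 was at 3.76 FPKM in the Type-1 sample 5, against 0.0529 FPKM or less in the other 3 Type-1 neurons. It was at 0.207 FPKM in the Unknown sample 9, against 0.0238 FPKM or less. Kcnmb4 was at 1.44 FPKM in the Unknown sample 8, against 0.0493 FPKM or less. Abcc9 was at 0.0988 FPKM in the Unknown sample 2, against 0.00391 FPKM or less. Of the other flags, Kcnn1 at 0.017 FPKM in the Type-1 sample 7 and Kcnn3 at 0.00614 FPKM in the Unknown sample 3 rest on 2 fragments each, within the 3 that a count of 0 allows.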

How the results depend on the processing

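The 24 gene-neuron pairs and the 2 genes present in at least 5 neurons were within 1.5 times of these numbers under TPM, subtraction of expected fragments and detection at 0.1 FPKM or 10 counts. At 5 FPKM the pairs fell to 11 and the common genes to 1, with 0 neurons holding both BK genes, 0 holding a Kir6 with a sulfonylurea receptor gene and so 0 holding either pair, where 4, 1 and 5 had. Leaving out each neuron in turn gave 19 to 24 pairs, 2 to 2 common genes, 3 to 4 neurons with both BK genes, 0 to 1 with a KATP pair (0 without sample 1), 4 to 5 with either, and 2 to 4 genes past a difference of 1 between Type-1 and Unknown neurons (2 without sample 6). It gave 1 to 2 genes higher in every Dbx1-derived neuron, the second being Kcnmb4 without sample 1. Leaving out neurons cannot make separate groups overlap, so this number could not fall. Samples 1 to 4, the libraries with the least cDNA by the study's account, were also left out together, an alternative chosen after seeing the data. Without them, 2 genes were higher in every Dbx1-derived neuron and 0 neurons held a KATP pair. By medians, the Type-1 to Unknown difference was 1.86 for Kcnma1 and -0.06 for Kcnn1. Where 4 genes had passed a difference of 1, TPM gave 5, with Kcnma1 at 1.13. A pseudocount of 0.1 gave 6, with Kcnma1 at 1.58 and Abcc8 at 1.07. No paired analysis was possible because the labels give no replicate numbers that groups share.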

Other observations

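Kcnu1, the third Slo-family relative of the BK gene, is best known from sperm. It was at 4.51, 12.1, 7.82 and 4.86 FPKM in samples 5, 8, 9 and 10 and did not pass 0.0221 FPKM elsewhere, and its annotated exons are shared with no other gene. Of these 4 neurons, sample 10 had Kcnma1 at 0.00579 FPKM and the other 3 at 2.82 FPKM or more. Kcnt2, a sodium-activated relative, was at 12.7 FPKM in sample 9, where Kcnt1 was at 0.062 FPKM.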
